A study of Mus musculus with 11 samples.

Results

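The 198 protein-coding genes of mouse whose annotated span, end minus start, reached 500 kb are described here for HIV integration. They were taken by that length from 22348 protein-coding genes of an annotation of the mm9 assembly, after the models Gm20388 and Fgfr2, which span other genes, had been left out. Together they cover 166 Mb, or 6.29% of chromosomes 1 to 19 and X, and they held 28860 of 831994 distinct integration sites from 11 libraries. The rule used length alone and no integration value. Edil3, at 501.8 kb with a mean density of 0.406 times uniform, lay just inside it, and Dnm3, at 495.6 kb with 1.82, just outside.

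All libraries came from mouse embryonic fibroblasts of strain C57BL/6 that lack LEDGF, which tethers the viral integrase to chromatin in normal cells, so every group shares the LEDGF-/- genotype and HIV infection. The cells had been electroporated with a plasmid for 1 protein fused to the integrase-binding domain of LEDGF, with infection after 24 hours and harvest 3 days later. Of the 11 fused proteins, NELFA, NELFB, NELFCD and NELFE are subunits of NELF (4 libraries), SPT5 stands alone (1 library), and INIP, INTS3, INTS9, INTS11, NABP1 and NABP2 belong to Integrator or to the SOSS complexes that bind it (6 libraries). Each protein has 1 library, so the libraries of a group are different subunits and not repeats of 1 fusion, and nothing in the labels says that they came from separate cultures. No library without a fused protein was analysed here, and integration sites carry no marker expression against which the fibroblast label could be checked.

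NELF holds RNA polymerase II in a pause just downstream of gene starts, SPT5 travels with the polymerase through the gene, and Integrator cleaves the RNA of paused or early polymerase. HIV normally favours the bodies of active genes, a preference that depends on LEDGF. A gene of this size takes the polymerase hours to cross, so most of its span lies far from any start. Many of the longest mammalian genes encode synaptic and neuronal adhesion proteins that fibroblasts use little, some encode adhesion and polarity proteins that fibroblasts use, and several coincide with common fragile sites, where replication is late or slow. Long genes often carry another promoter deep inside the span that makes a shorter protein.

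Libraries held 18753 to 197069 distinct sites with a median of 41265, and 746 to 8191 of them lay in very long genes. Density is given as the fold over uniform, the share of a library's sites in a region divided by that region's share of the genome, so 1 means the density that evenly spread sites would have. Flow cells were taken from the read names of the deposited entries, not from the sample labels. By these names the 4 NELF libraries shared a flow cell with no library of another group. NELF and its flow cells thus cannot be told apart in any NELF against Integrator value below. Spread over libraries is given as SD, and intervals on single libraries cover counting error only.

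The stretches below are the densest 300 bases of 5 of these genes and show where sites piled up within spans that were otherwise sparse. Capitals mark bases at which a site was deposited, on either strand, and all stretches are introns of the plus-strand gene in mm9. In Schip1 the stretch chr3:68297288-68297587 lies 428 kb into the gene, its centre 693 bases before an internal transcript start, and held 17 sites from 8 libraries with a GC content of 61.7%. In Zbtb20 chr16:43362710-43363009 lies 487 kb inside, its centre 1127 bases before an internal start, and held 13 sites from 6 libraries with 36.0% GC. In Frmd4a chr2:4323146-4323445 lies 384 kb inside, its centre 778 bases past an internal start, and held 9 sites from 6 libraries. Cdh13 is shown for a gene whose densest stretch lay at its own annotated start: chr8:120807953-120808252 begins 320 bases downstream and held 8 sites from 4 libraries. Dlgap1 is shown for a stretch with none of the gene's own protein-coding transcript starts nearby: chr17:71087085-71087384 lies 769 kb inside with its centre 176107 bases from the nearest of them and held 6 sites from 5 libraries. Cdh13 was chosen for display after its values were seen.
Schip1: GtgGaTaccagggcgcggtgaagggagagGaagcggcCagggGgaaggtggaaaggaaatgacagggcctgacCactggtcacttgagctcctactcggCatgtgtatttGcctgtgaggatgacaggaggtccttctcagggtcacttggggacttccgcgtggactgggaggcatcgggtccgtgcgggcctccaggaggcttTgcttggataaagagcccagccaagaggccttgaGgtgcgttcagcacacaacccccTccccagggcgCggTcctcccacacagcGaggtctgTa
Zbtb20: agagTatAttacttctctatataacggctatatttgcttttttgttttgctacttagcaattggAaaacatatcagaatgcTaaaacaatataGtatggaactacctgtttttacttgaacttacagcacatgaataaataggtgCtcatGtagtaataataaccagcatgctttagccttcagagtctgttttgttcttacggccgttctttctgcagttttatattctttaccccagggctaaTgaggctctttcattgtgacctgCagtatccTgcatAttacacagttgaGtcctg
Frmd4a: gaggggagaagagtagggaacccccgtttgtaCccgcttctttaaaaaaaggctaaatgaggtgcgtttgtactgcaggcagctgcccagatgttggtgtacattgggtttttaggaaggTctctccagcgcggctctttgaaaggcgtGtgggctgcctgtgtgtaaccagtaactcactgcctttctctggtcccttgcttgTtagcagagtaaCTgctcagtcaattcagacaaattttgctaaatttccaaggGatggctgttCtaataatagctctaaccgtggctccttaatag
Cdh13: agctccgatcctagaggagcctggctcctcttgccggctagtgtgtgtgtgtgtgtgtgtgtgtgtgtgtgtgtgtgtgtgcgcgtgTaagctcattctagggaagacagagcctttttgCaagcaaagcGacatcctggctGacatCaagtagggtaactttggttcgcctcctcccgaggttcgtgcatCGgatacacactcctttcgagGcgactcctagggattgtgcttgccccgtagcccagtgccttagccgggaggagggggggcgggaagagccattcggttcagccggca
Dlgap1: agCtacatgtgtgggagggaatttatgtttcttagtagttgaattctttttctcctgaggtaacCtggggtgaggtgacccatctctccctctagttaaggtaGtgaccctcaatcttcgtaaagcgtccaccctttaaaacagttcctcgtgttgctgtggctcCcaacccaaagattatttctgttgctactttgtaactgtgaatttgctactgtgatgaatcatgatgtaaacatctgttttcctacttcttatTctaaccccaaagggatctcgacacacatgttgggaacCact

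The 5 stretches differ in composition and in position. The centres of the Schip1 and Frmd4a stretches lie within 1 kb of an internal start, that of Zbtb20 slightly farther out, that of Cdh13 near the annotated start and that of Dlgap1 near neither. The Cdh13 stretch carries 16 CG pairs, Schip1 13, Frmd4a 7, Dlgap1 4 and Zbtb20 3. The Zbtb20 stretch also lies inside the model of a noncoding transcript on the other strand, Gm9968.

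Very long genes were hit less often than uniform in every library. The fold over uniform was 0.522 in NELFA, 0.463 in NELFB, 0.558 in NELFCD and 0.632 in NELFE. It was 0.480 in SPT5, where 3.02% of sites lay in these genes (exact binomial 95% interval 2.90% to 3.14%). In the Integrator libraries the lowest value was 0.446 in NABP2, the median 0.580 and the highest 0.801 in INTS11. The ranges of NELF and Integrator overlapped, with means of 0.544 ± 0.071 in NELF (SD, n = 4) and 0.609 ± 0.154 in Integrator (SD, n = 6). The difference of -0.12 on the log2(fold + 0.1) scale did not pass an exact two-sided permutation test over the 210 splits (p = 0.495, adjusted p = 0.594 over 6 length classes). The direction of that small difference turned when library totals left out sites within 5 kb of coding-gene starts (0.752 in NELF and 0.715 in Integrator, adjusted p = 0.657).

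Sites of a protein from different flow cells, by read name, differed little in density beside the range over proteins. INTS9 had 0.717 on the flow cell it shared with INTS11 and 0.654 on that shared with NABP1 and NABP2. NABP1 had 0.495 and 0.469 on its 2 flow cells, and NABP2 0.496 and 0.435. On the flow cell that held INIP, INTS3 and NABP2 together, INIP was at 0.765 while INTS3 was at 0.50 and NABP2 at 0.496. The high INIP value thus stood beside low ones from the same flow cell.

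Protein-coding genes under 500 kb were hit more often than very long ones in every library. Very long genes had 0.354 ± 0.105 times the density of shorter genes (SD, n = 11 libraries), from 0.222 in NABP2 to 0.542 in INTS11. The ratio was below 1 in 11 of 11 libraries, and an exact two-sided sign-flip permutation test over libraries gave p = 0.000977, the smallest that 11 libraries can give. Without bases within 5 kb of annotated gene starts the mean ratio was 0.487. Against the sequence outside protein-coding genes, very long genes had a ratio of 0.800 ± 0.126 (SD, n = 11), below 1 in 10 libraries and 1.02 in INTS11.

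Density followed gene length through all classes. Mean densities in genes under 10 kb were 5.65 in NELF and 3.54 in Integrator, with 8.52 in SPT5, and the 2 groups did not overlap (exact permutation p = 0.0238, adjusted p = 0.0714). In genes of 10 to 50 kb they were 2.26 in NELF and 2.38 in Integrator, and in genes of 50 to 100 kb 1.47 in NELF and 1.81 in Integrator. In genes of 100 to 250 kb NELF had 1.10 ± 0.079 and Integrator 1.32 ± 0.084 (SD, n = 4 and 6), again without overlap, and this was the one class that passed (exact permutation p = 0.0048, adjusted p = 0.0286). Among the length classes, alternative settings are given here for very long genes only. Whether this difference depends on the library total is thus not shown. Genes of 250 to 500 kb had 0.797 in NELF and 0.905 in Integrator. The order of the groups below 10 kb thus differed from that above 50 kb, and mean densities fell from class to class down to very long genes. Bases near starts were counted in every class, and they make up more of a short gene. Class densities away from starts are not given here.

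**Figure D1:**
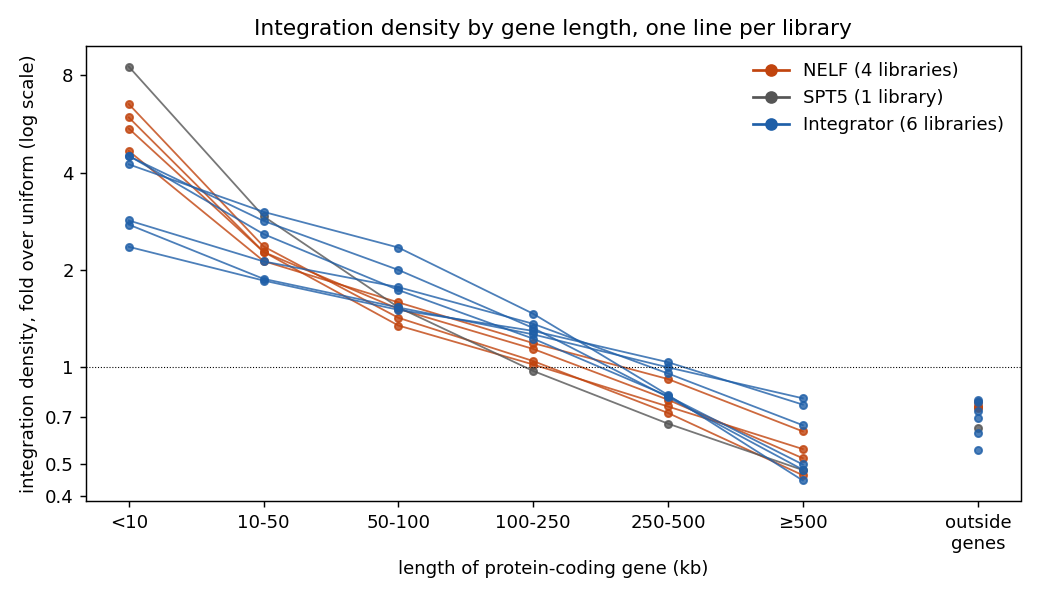
Integration density (fold over uniform, log scale) by length class of protein-coding genes in kb and outside genes, with a point for each of 4 NELF, 1 SPT5 and 6 Integrator libraries and lines joining the classes of a library. Values of very long genes lie between 0.446 and 0.801, below 1 in all 11 libraries.

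Within very long genes, density was highest at the annotated start, though few of the sites lay there: the first 5 kb, 0.596% of the length, held 555 of 28860 sites, or 1.92%. In the first 5 kb the fold over uniform was 1.89 ± 0.19 in NELF, 1.75 in SPT5 and 1.69 ± 0.40 in Integrator (SD, n = 4, 1 and 6). From 5 to 50 kb it was 0.584 ± 0.045 in NELF, 0.545 in SPT5 and 0.720 ± 0.172 in Integrator. From 50 to 250 kb it was 0.516 ± 0.096 in NELF, 0.442 in SPT5 and 0.603 ± 0.144 in Integrator. Density had thus already reached its low level within 50 kb. Beyond 250 kb it was 0.531 ± 0.070 in NELF, 0.480 in SPT5 and 0.582 ± 0.156 in Integrator, and in the last 50 kb 0.625 ± 0.064, 0.442 and 0.717 ± 0.219 in the same order of groups. None of the 5 zones passed for NELF against Integrator (exact permutation tests, adjusted p 0.563 to 0.648).

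Sites lay about equally on both strands of these genes, which was not tested. The share of sites on the strand of the gene was 50.6 ± 1.28% in NELF, 51.0% in SPT5 and 50 ± 0.73% in Integrator (SD, n = 4, 1 and 6), and it lay between 48.8% in INTS3 and 52.1% in NELFB over the 11 libraries.

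The height of the start over the rest of the gene varied by library. The first 5 kb held 4.88 times the density of the rest in NABP2 and 1.55 times in INIP, the highest and lowest of 11. INIP had a fold of 1.18 at starts, from 11 sites. INTS11 had 1.96 there and the second lowest ratio of all, with the highest density in the rest, 0.779. These 2 libraries also had the highest density over very long genes as a whole. The rest makes up 95.8% of the length, so a high density as a whole and a low ratio are not separate results.

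**Figure D2:**
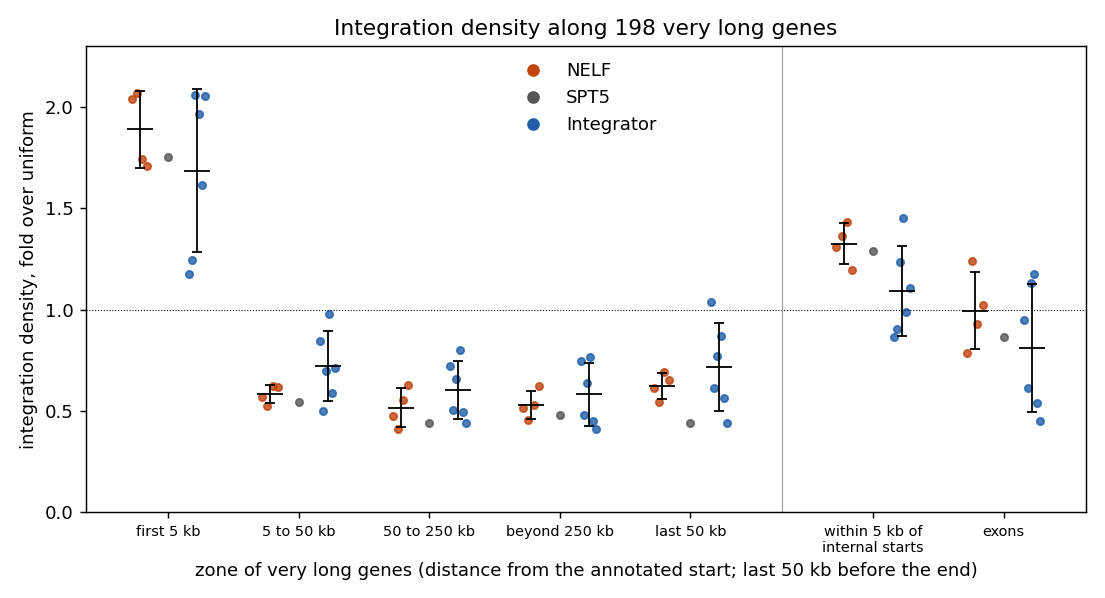
Integration density (fold over uniform) in zones of the 198 very long genes, left of the line by distance from the annotated start and right of it within 5 kb of internal transcript starts and in exons. Points are libraries of NELF, SPT5 and Integrator, bars the mean and SD; values run from 1.18 to 2.07 in the first 5 kb and from 0.864 to 1.45 at internal starts, and the range at internal starts overlaps those of other zones.

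Density was also raised at starts inside the span. Of the 198 genes, 133 have protein-coding transcripts that begin at least 10 kb inside the gene, at 402 positions. This comparison was chosen after values had been seen and carries no test. Within 5 kb of these internal starts the fold over uniform was 1.32 ± 0.10 in NELF, 1.29 in SPT5 and 1.09 ± 0.22 in Integrator (SD, n = 4, 1 and 6). The rest of the genes left out the first 5 kb, 5 kb around these internal starts and 5 kb around starts of other gene models. Starts of the gene's own noncoding transcripts stayed in it. There the fold was 0.520 ± 0.073 in NELF, 0.456 in SPT5 and 0.591 ± 0.156 in Integrator. The ratio was 2.25 ± 0.57 over 11 libraries (SD), with 3.12 in NELFB as the highest, 1.14 in INIP as the lowest and a value above 1 in 11 of 11. Within 2 kb of internal starts the mean ratio was 3.28. The zone near internal starts kept any starts of other genes that lie there, while the rest left such starts out. Exons of the genes, 1.08% of their length, had 0.994 ± 0.191 in NELF, 0.863 in SPT5 and 0.809 ± 0.314 in Integrator.

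The densest single windows in very long genes were mostly at starts, while the fullest window of most genes was not. Each gene was split into windows of 10 kb, for which uniform sites would give 3.15 sites over the 11 libraries, and the fullest window of each gene was kept. Of the 20 fullest of these, with 17 to 60 sites, 9 held an internal start of the gene, 7 its annotated start and 4 neither. Over all 198 genes the fullest window held the annotated start in 29 and an internal start in 15. It held only the start of another gene in 4 and none of these in 150. Own starts were those of protein-coding transcripts only, so starts of noncoding transcripts of the gene were not counted. Some windows counted under a gene's own starts also held the start of another gene. Among those with an internal start these were Frmd4a (Gm13187), Mecom (Gm16722), Zbtb20 (Gm9968) and Rbms3 (Gm17396). The dense windows without such a start include those in Dlgap1, Lpp and Syne1.

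Gene by gene, mean density over the 11 libraries ran from 0.134 at Skint5, a gene of skin and thymus epithelium, to 2.11 at Frmd4a, with a median of 0.527. A mean above 1 was found in 15 genes and a mean below 0.5 in 89. Density was above 1 in every library at 3 genes, Frmd4a, Mecom and Schip1, and below 1 in every library at 89. Sites from all 11 libraries were present in 169 genes. Across the 198 genes, the rank correlation of density between library pairs averaged 0.49, from 0.24 to 0.83. It averaged 0.39 over the 6 pairs within NELF, 0.46 over the 24 pairs of NELF with Integrator and 0.56 over the 15 pairs within Integrator. These values describe genes that share length and base composition, and library size differs between the groups, so they carry no test.

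**Figure D3:**
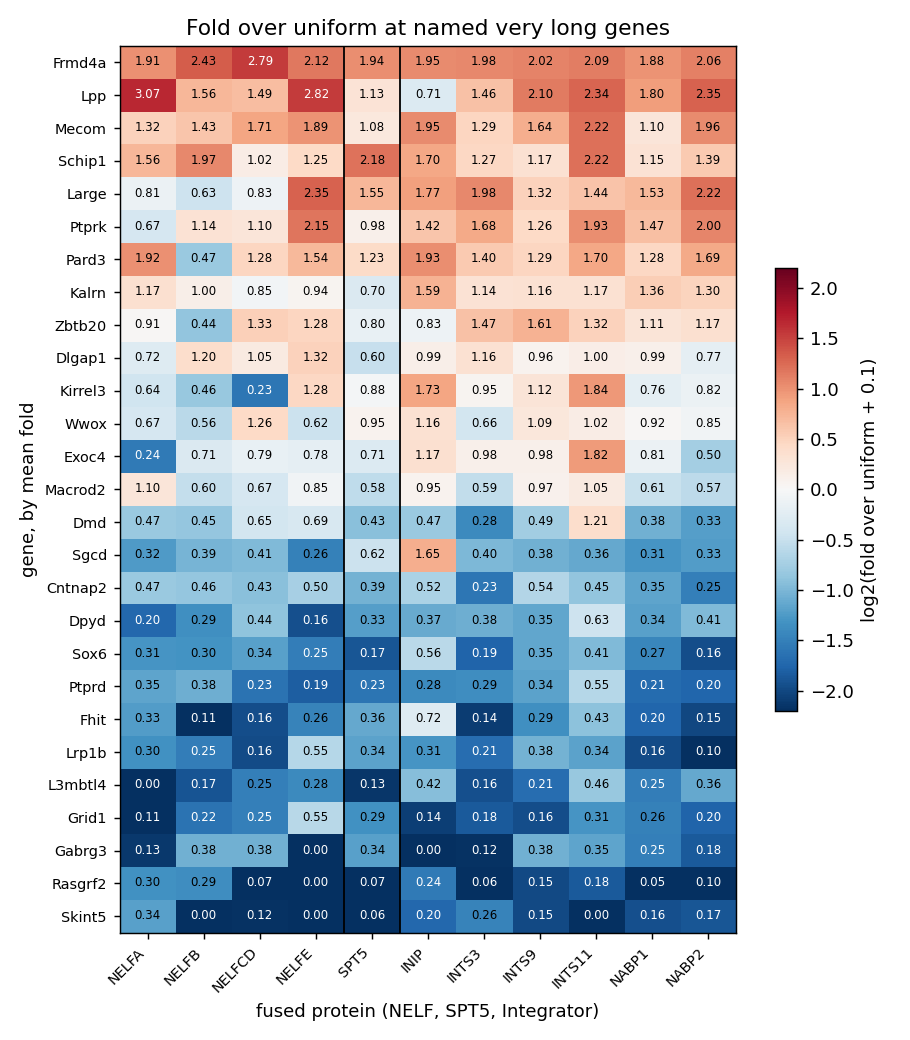
Fold over uniform (numbers, and colour on the log2(fold + 0.1) scale) at 27 named genes in each library, genes ordered by mean fold and libraries grouped as NELF, SPT5 and Integrator. Frmd4a, Mecom and Schip1 are above 1 in all 11 columns, while Skint5 at the bottom is at most 0.34.

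Frmd4a encodes a FERM domain scaffold of cell polarity and spans chr2:3938763-4535083 on the plus strand. Its fold over uniform was 1.91 in NELFA, 2.43 in NELFB, 2.79 in NELFCD and 2.12 in NELFE. It was 1.94 in SPT5, and in Integrator the lowest value was 1.88, the median 2.0 and the highest 2.09. Every library lay near or above 1.9, and NELF and Integrator overlapped (limma log2 difference 0.20, SE 0.23, adjusted p = 0.685). Its sites were not spread evenly. In the first 50 kb, 8.38% of its length, lay 1.57% of its 382 sites, and the fullest windows followed internal starts at 283 and 383 kb, where bins of 20 kb held 58 and 55 sites.

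Schip1 encodes a partner of the tumour suppressor merlin, and its long model joins the gene to an upstream one. It spans chr3:67868864-68430404 on the plus strand. Its fold over uniform was 1.56 in NELFA, 1.97 in NELFB, 1.02 in NELFCD and 1.25 in NELFE. It was 2.18 in SPT5, and 1.15 at lowest, 1.33 at the median and 2.22 at highest in Integrator. The groups overlapped. One window of 10 kb, at 420 kb, held 60 of its 247 sites, or 24.3% of them in 1.78% of the length, and all 11 libraries had a site there. No site lay in its first 5 kb.

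Before and after the internal start the same 2 genes differed in density. The first 5 kb of each gene and 5 kb on either side of the internal start were left out of these densities. After the start at 429 kb Schip1 held 77.8 sites per 100 kb over the 11 libraries, against 11.9 before it, where uniform sites would give 31.5. The 10 kb left out around that start held 98 sites. After the start at 283 kb Frmd4a held 92.2 sites per 100 kb, against 19.8 before it. More than 5 kb upstream of the internal start, density was thus below uniform in both genes, and more than 5 kb downstream it was above uniform. For the 15 genes whose fullest window held an internal start, the split was made at that start. Density was higher after than before it in 14, with Mecom as the exception at 40.2 after and 44.2 before. Other internal starts can lie before such a split, as in Mecom, Zbtb20, Pde4b and Pde4d. Over all 133 genes with internal starts, density after the first of them was 1.17 ± 0.08 times that before it (SD, n = 11 libraries). The first 5 kb of the gene and 5 kb around that internal start were again left out. The ratio ran from 1.04 in INTS11 to 1.28 in INTS3. By this split any later internal starts fall after and none before, so the ratio includes the raised density near later starts. Over all 198 genes, mean fold was lowest, at 0.498, from 30 to 35% of the span. Past the first 5% it was highest, at 0.679, from 90 to 95%. Genes without internal starts were not split, so 1.17 has no such value beside it. These splits were chosen after values had been seen and carry no test, and sums over the 11 libraries weigh the larger libraries more.

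**Figure D4:**
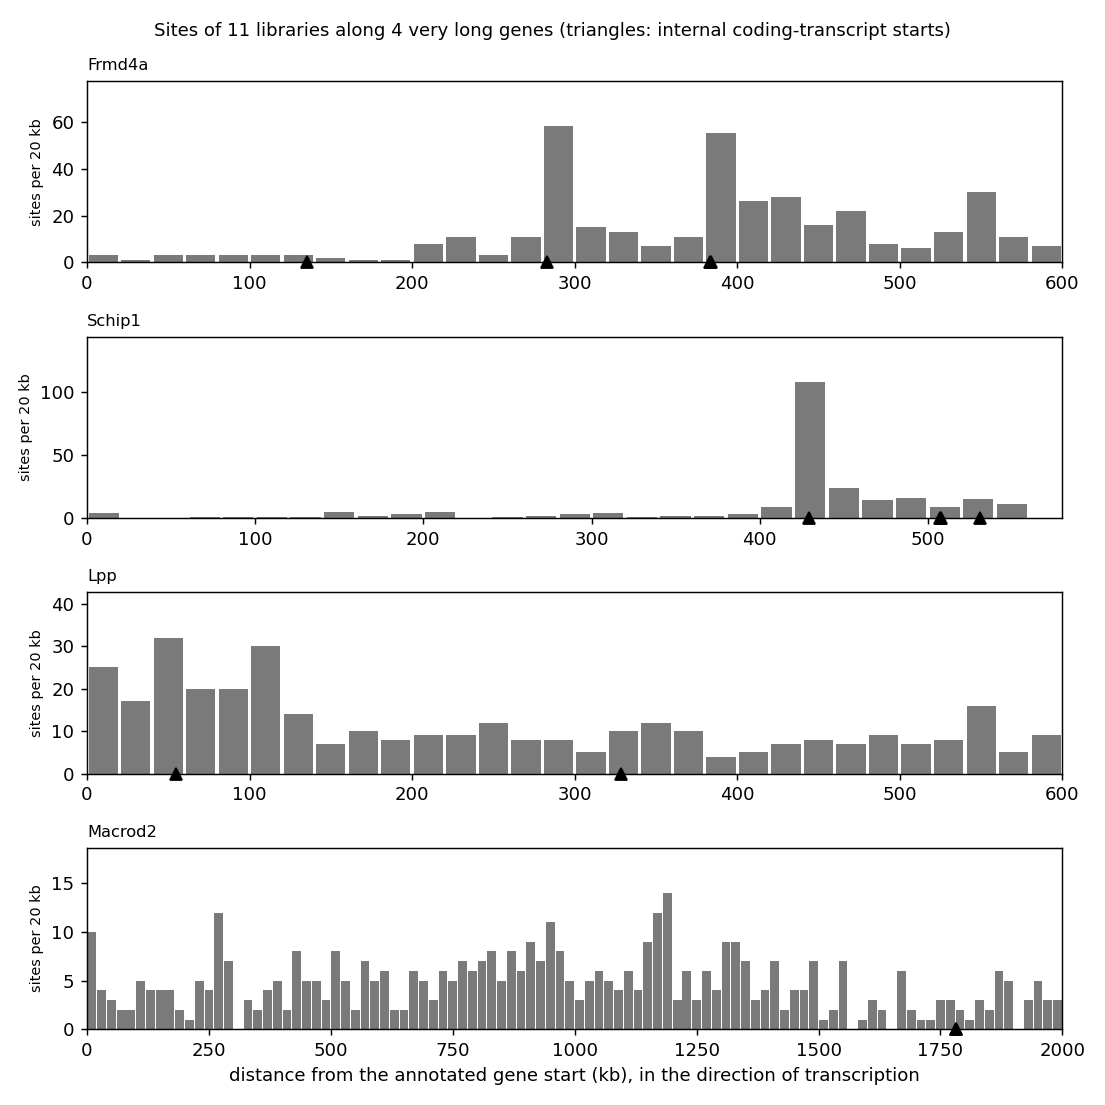
Sites of all 11 libraries in bins of 20 kb along Frmd4a, Schip1, Lpp and Macrod2, by distance from the annotated start in kb, with triangles at internal starts of protein-coding transcripts. In Frmd4a and Schip1 the fullest bins (58 and 108 sites) lie at internal starts, in Lpp sites decline along the gene, and in Macrod2 no bin exceeds 14 sites.

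Other genes whose fullest window held an internal start include the cyclic AMP phosphodiesterases Pde4b and Pde4d, the cyclin-dependent kinase gene Cdk14, the RNA-binding protein genes Rbms3 and Celf2, and Arfip1, an adaptor of ARF GTPases. They were chosen by their windows after values were seen. Densities before and after their internal starts leave out the same bases as above. Pde4b held 19 sites in its window, around a start at 483 kb, with 34.2 sites per 100 kb after the internal start and 27.9 before it. Pde4d held 20 sites around a start at 1236 kb, with 27.4 after and 24.4 before. Cdk14 held 18 sites around a start at 40 kb, with 28.5 after and 19.9 before. Rbms3 held 15 sites in its window, with 22.1 after its internal start and 15.2 before. These steps were smaller than those of Schip1 and Frmd4a, whose ratios of after to before were 6.52 and 4.66, with 2.34 at Kirrel3 and at most 1.58 in the remaining genes of the 15.

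Lpp, which encodes a LIM domain protein of focal adhesions, ranked after Frmd4a. Its fold over uniform was 3.07 in NELFA, 1.56 in NELFB, 1.49 in NELFCD and 2.82 in NELFE. It was 1.13 in SPT5, and in Integrator 0.707 in INIP as the lowest, 1.95 at the median and 2.35 at highest. INIP was the one library below 1, with 4 sites. Unlike the preceding genes, Lpp had sites from its annotated start onward: 15.7% of its 351 sites lay in the first 50 kb, 8.34% of its length.

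Mecom, the locus of the zinc finger factors EVI1 and MDS1-EVI1, had a fold over uniform of 1.32 in NELFA, 1.43 in NELFB, 1.71 in NELFCD and 1.89 in NELFE. It was 1.08 in SPT5, and 1.10 at lowest, 1.80 at the median and 2.22 at highest in Integrator. Large, a glycosyltransferase that modifies dystroglycan, averaged 1.16 ± 0.80 in NELF and 1.71 ± 0.35 in Integrator (SD, n = 4 and 6). Ptprk, a phosphatase of cell contacts, averaged 1.27 ± 0.63 in NELF and 1.63 ± 0.30 in Integrator, and Pard3, a core polarity protein, 1.30 ± 0.62 in NELF and 1.55 ± 0.26 in Integrator. In Large, Ptprk and Pard3 the fullest window was the one at the annotated start, with 24, 33 and 27 sites. Groups overlapped at each of these genes.

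Below the 8 highest, means above 1 went with libraries on both sides of it. Cacna1c, a voltage-gated calcium channel of heart and other excitable cells, averaged 1.61 ± 0.21 in NELF, 1.38 in SPT5 and 1.30 ± 0.44 in Integrator (SD, n = 4, 1 and 6) and was above 1 in 10 libraries. Smyd3, a lysine methyltransferase, averaged 1.34 ± 0.60 in NELF and 1.02 ± 0.34 in Integrator. Magi1, a scaffold of cell junctions, averaged 0.876 ± 0.324 in NELF and 1.25 ± 0.59 in Integrator. Syne1, which links the nucleus to the cytoskeleton, averaged 1.18 ± 0.33 in NELF and 1.05 ± 0.38 in Integrator, and Slit3, a secreted guidance protein of fibroblasts and other cells, 1.33 ± 0.49 in NELF and 0.845 ± 0.186 in Integrator. These 5 genes, with Kalrn, Zbtb20 and the 8 highest, complete the 15, and those 5 were picked from them after their values were seen. Zbtb20, a zinc finger repressor, averaged 0.995 ± 0.412 in NELF and 1.25 ± 0.28 in Integrator, with NELFB the lowest library at 0.445.

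Macrod2 encodes an enzyme that removes ADP-ribose and lies at a fragile site. It spans 1998 kb at chr2:140221045-142218702 on the plus strand, and it held 466 sites, the most of any very long gene. Its fold over uniform was 1.10 in NELFA, 0.601 in NELFB, 0.672 in NELFCD and 0.845 in NELFE. It was 0.579 in SPT5, and in Integrator 0.569 in NABP2 as the lowest, 0.782 at the median and 1.05 in INTS11 as the highest. The mean of 0.776 ± 0.210 (SD, n = 11) put it at rank 37 of 198 by density. NELF and Integrator overlapped (limma log2 difference 0.03, SE 0.27, adjusted p = 0.981). Its sites were the most even of the 4 genes profiled: the fullest bin of 20 kb, from 1180 kb, held 14 sites, and the first 50 kb held 3.00% of sites in 2.5% of the length. Flrt3, a gene for a cell adhesion protein that lies inside Macrod2 at 276 kb, had 9 sites within 5 kb of its start.

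The 3 longest genes were all below uniform on average. Ptprd, a neuronal receptor phosphatase of 2271 kb, had a mean fold of 0.293 ± 0.107 (SD, n = 11). Dmd, which encodes dystrophin over 2257 kb of chromosome X, had 0.530 ± 0.254, and Cntnap2, a neuronal contactin partner of 2241 kb, 0.417 ± 0.102. At Dmd the INTS11 library stood apart with 1.21 from 35 sites, against 0.279 to 0.486 in the other Integrator libraries; no more than 2 of the 35 fell within 10 kb of each other. Length and mean fold over the 198 genes had a rank correlation of -0.20, GC content and mean fold one of 0.35, and the number of other genes' starts per Mb and mean fold one of 0.23. These are descriptions over genes that share libraries.

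At the low end, 2 values need care. Rasgrf2, an exchange factor for Ras, had a mean fold of 0.138, but 74.2% of its model is unsequenced N in mm9, and over its known bases the mean was 0.517. Immp2l, with 29.2% N, had 0.492 over its whole model and 0.672 over its known bases, and no other member had over 10% N. Skint5 has no N, and its mean over known bases was 0.130. Skint5 had 0 sites in NELFB, NELFE and INTS11, and 3 sites there would have given folds of 0.490, 0.809 and 0.447, so single libraries place it loosely. Gabrg3, a GABA receptor subunit, averaged 0.223 ± 0.190 in NELF and 0.213 ± 0.143 in Integrator (SD, n = 4 and 6). Grid1, a delta glutamate receptor, averaged 0.286 ± 0.188 in NELF and 0.206 ± 0.063 in Integrator, and L3mbtl4, a chromatin protein with MBT repeats, 0.175 ± 0.126 in NELF and 0.311 ± 0.120 in Integrator. All 5 lowest genes were below 1 in each of the 11 libraries.

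Genes listed as mesenchymal or broadly expressed were hit more often than genes listed as neuronal. Among 25 very long genes known for adhesion, cytoskeleton, matrix or signalling in mesenchymal cells the median of mean folds was 0.776, and 22 lay above the median of all 198 genes. Among 18 genes expressed in most cell types the median was 0.822 and 13 lay above it. Among 97 neuronal genes the median was 0.457 and 35 lay above it, and among 54 genes in no list the median was 0.512 and 26 lay above it. Means above 1 were found in 7 mesenchymal, 4 broadly expressed, 1 neuronal and 3 unlisted genes. The lists were drawn from general knowledge of the genes but with earlier results of these data known, so their order is a description. Expression of the listed genes in these cells was not measured here.

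The order held in every library when sites were pooled over each list. Mesenchymal genes had 1.73 ± 0.10 times the density of neuronal genes in NELF, 1.75 times in SPT5 and 1.82 ± 0.37 times in Integrator (SD, n = 4, 1 and 6). The ratio was above 1 in all 11 libraries, from 1.37 in INIP to 2.42 in NABP2. Mesenchymal genes reached 1.09 in INTS11 and 0.711 in SPT5, the highest and lowest of the 11, while neuronal genes ranged from 0.343 in NABP2 to 0.695 in INTS11. Of the 11 libraries, INTS11 alone had mesenchymal genes above uniform density. Median GC content was 41.7% in mesenchymal and 38.9% in neuronal genes, median length 688 and 823 kb, and the part of these features in the difference was not tested.

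**Figure D5:**
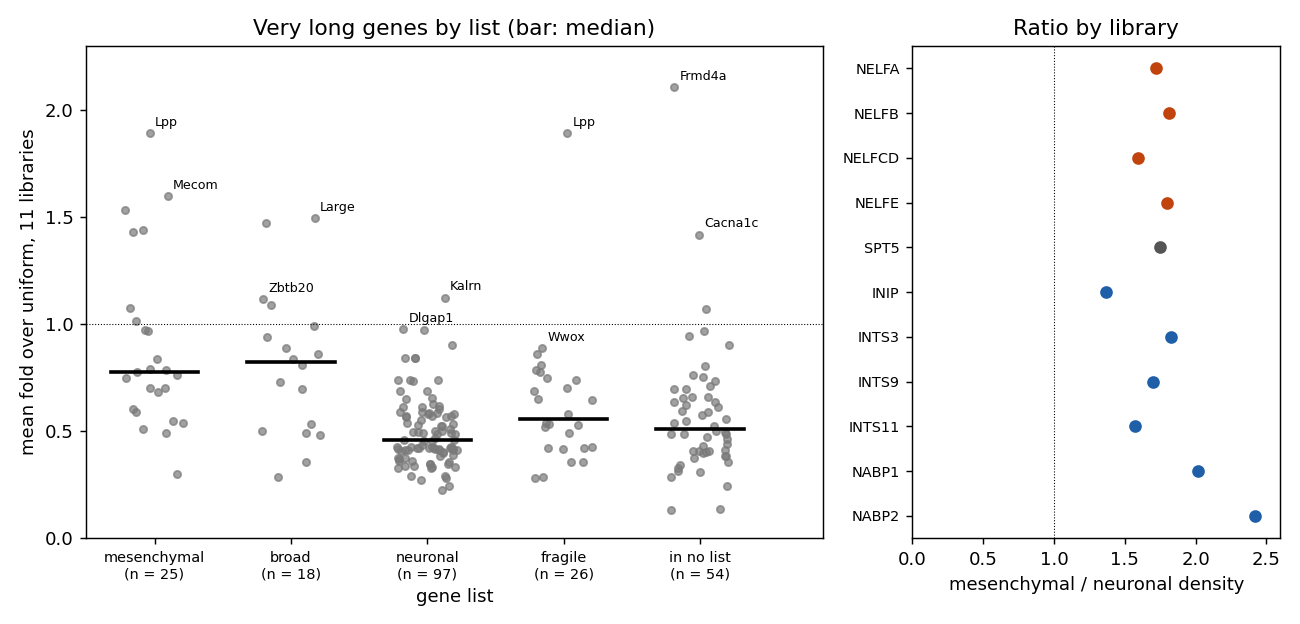
Left, mean fold over uniform of each very long gene by list, with a bar at the median and names at some of the highest genes; right, ratio of mesenchymal to neuronal density in each library (NELF, SPT5 and Integrator in red, grey and blue). Medians are 0.776 for 25 mesenchymal and 0.457 for 97 neuronal genes, and all 11 ratios lie above 1.

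By gene, the mesenchymal list ran from Sox6 at 0.301 to Lpp at 1.89. Between them lay genes such as Prkg1, a cyclic GMP kinase, at 0.70, Dock1, an activator of Rac, at 0.776, Ptprm, a phosphatase of cell contacts, at 0.840 and Cdh13, a cadherin without a cytoplasmic domain, at 0.97. The broadly expressed list ran from Fhit at 0.286 to Large at 1.49, with Lrba, a vesicle traffic protein, at 0.697 and Vps13b, a Golgi protein, at 0.990. Of the mesenchymal genes 24 were tested with limma for NELF against Integrator, with a median log2 difference of -0.28 and 0 calls. For the neuronal genes 59 were tested, with -0.19 and 0 calls, beside a median of -0.33 and 0.886% called over all genes tested. These medians are subject to the filter on raw counts described below. The genes given between the ends of a list were picked after values were seen.

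Along the gene, mesenchymal and broadly expressed genes were high at the start. In the first 5% of the span the mean fold over 11 libraries was 1.27 for mesenchymal, 1.22 for broadly expressed and 0.589 for neuronal genes. Neuronal genes stayed between 0.392 and 0.639 in every later bin of 5%. Mesenchymal genes were high again from 75 to 80% of the span, at 1.28 against 0.535 for neuronal genes, where most of the dense Schip1 window lies in its gene.

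Single genes crossed these lists. Of the neuronal list, Kalrn, a signalling protein of dendritic spines, averaged 0.990 ± 0.134 in NELF and 1.29 ± 0.17 in Integrator (SD, n = 4 and 6). Dlgap1, a postsynaptic scaffold, averaged 1.07 ± 0.26 in NELF and 0.979 ± 0.123 in Integrator. In Dlgap1 28 of 255 sites, from all 11 libraries, lay in 1 window of 10 kb at 770 kb. The gene model Gm16952 lies within 5 kb of that window or overlaps it. Kirrel3, an adhesion protein of the nephrin type, averaged 0.653 ± 0.448 in NELF and 1.20 ± 0.47 in Integrator, and 25.5% of its sites lay in the last 50 kb, 9.08% of its length, next to an internal start. Of the mesenchymal list, Sox6, a transcription factor of cartilage and muscle, averaged 0.299 ± 0.038 in NELF and 0.325 ± 0.149 in Integrator. Sgcd, a sarcoglycan of muscle membranes, had 1.65 in INIP from 17 sites, against 0.308 to 0.401 in the other Integrator libraries and 0.258 to 0.414 in NELF. Those 17 sites were spread over 932 kb with at most 2 within 10 kb.

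Genes of common fragile sites had a median close to that of very long genes at large. The median over 26 such genes was 0.558, beside 0.527 for all 198, and Lpp was the one above 1. Wwox, an oxidoreductase with WW domains, averaged 0.777 ± 0.325 in NELF and 0.95 ± 0.18 in Integrator (SD, n = 4 and 6). Exoc4, an exocyst subunit, averaged 0.629 ± 0.261 in NELF and 1.04 ± 0.44 in Integrator. Fhit, a hydrolase at the most studied fragile site, averaged 0.213 ± 0.099 in NELF and 0.322 ± 0.225 in Integrator, and Lrp1b, a lipoprotein receptor relative, 0.312 ± 0.167 in NELF and 0.251 ± 0.111 in Integrator. Dpyd, which starts pyrimidine breakdown, averaged 0.274 ± 0.124 in NELF and 0.412 ± 0.107 in Integrator. Fragile-site genes thus covered the range from Lpp to Lrp1b.

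Gene by gene, NELF and Integrator did not differ past the threshold at any very long gene. Genes were compared with limma on log2 of sites per 100000 plus 1, with Benjamini-Hochberg adjustment over the 677 protein-coding genes with 10 or more sites per library on average. Of these, 0.886% passed at 0.05 (6 genes, 3 higher and 3 lower in NELF). Of the very long genes 129 reached the filter and 69 did not, and 0 of the 129 passed. At an unadjusted p under 0.05 there were 11, or 8.53%, beside 105 of all 677 genes, or 15.5%. Of the 11, 1 was higher and 10 lower in NELF. Per 100000 sites inside protein-coding genes the number was 4 of 129, and without the first 5 kb 8 of 128. The lowest adjusted p was that of Gpc5, a cell surface glypican, with 0.229 ± 0.10 in NELF and 0.487 ± 0.141 in Integrator (SD, n = 4 and 6; log2 difference -1.07, SE 0.36, adjusted p = 0.168). The gene higher in NELF was Ctnnd2, a neuronal catenin, with 0.782 ± 0.169 in NELF and 0.474 ± 0.128 in Integrator (log2 difference 0.71, adjusted p = 0.297). Gpc5 and Ctnnd2 were chosen after their values were seen. The median log2 difference was -0.19 over the very long genes tested and -0.33 over all genes tested. Without the first 5 kb of genes it turned to 0.0285 over very long genes, with -0.11 over all genes. Per 100000 genic sites it was -0.10 and -0.24. With a mean of at least 1 site per library it was -0.25 and -0.31, and with at least 20 it was -0.13 and -0.30. The filter used raw counts, to which the large Integrator libraries add most, so genes high there passed more easily. No conclusion is drawn from the sign of these medians or from the 10 genes lower in NELF. On simulated counts of 578 genes the test recovered 27.7% of genes raised by a factor of 2 and 20% of genes lowered to 0.5, so differences of that size could be missed.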

How the data were processed

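HIV integration sites were mapped in 11 libraries. The deposited values are positions, thus other than a level: per the file headers an entry gives strand and genome position, counted from 0, of the first base past the viral LTR. Per the submitters' processing notes the build was mm9. How reads were aligned and filtered is not given in the sources used here. Entries with the same chromosome, position and strand were counted once, which left 831994 of 873534, and all flow cells of a protein formed 1 library. Coordinates are 1-based here. The annotation, on the same assembly, holds 22350 protein-coding genes on chromosomes 1 to 19 and X, and printed sequences are those of that assembly.

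The members and gene lists were chosen with earlier results of these data known. NELF (4 libraries) was compared with Integrator (6) by exact two-sided permutation tests over 210 splits on log2(fold + 0.1), adjusted over 6 length classes or 5 zones (Benjamini-Hochberg), and gene by gene with limma 3.58.1 (R 4.3.3) with its trend and robust options, on log2(sites per 100000 + 1), which was tested on simulated counts. Very long against shorter genes was tested with an exact sign-flip test over all 11 libraries. SPT5 entered no test of NELF against Integrator. Named genes were the 3 longest, Macrod2, the 8 highest and 5 lowest by mean fold, those that pass limma, and the 3 highest and 2 lowest of each list; 1 of them is not reported here. Other values were computed with Python 3.11.15, numpy 2.4.6, pandas 2.3.3 and scipy 1.17.1, and plots with matplotlib 3.10.9. Cells without a fused protein were not analysed here, so differences in how well reads map along these genes could not be corrected.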

Additional observations from a re-analysis of the deposited data

Results flagged for a closer look

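The spread within NELF and within Integrator was examined for 1 library far from the rest of its group in 74 sets of values, of which 6 met the mark, and chance alone marks about 1 in 20 such sets. Most rest on few sites. At Dmd the fold over uniform was 1.21 in INTS11 (35 sites), against 0.279 to 0.486 in the other Integrator libraries. At Dpyd it was 0.625 in INTS11 (7 sites), against 0.338 to 0.412. At Sgcd it was 1.65 in INIP (17 sites), against 0.308 to 0.401. Within NELF, Exoc4 had 0.242 in NELFA (2 sites), against 0.706 to 0.794 in the other NELF libraries. Large had 2.35 in NELFE (9 sites), against 0.633 to 0.831. Wwox had 1.26 in NELFCD (18 sites), against 0.560 to 0.672. INTS11 and INIP also had the highest density over very long genes as a whole, and NELFE is the smallest library with 18753 sites.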

How the results depend on the processing

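Of 254 recomputed values 231 kept their direction and their side of the threshold or stayed within the spread. The difference between NELF and Integrator over very long genes was -0.12 on the log2 scale. It turned to 0.0796 with library totals that leave out sites within 5 kb of coding starts. It turned to 0.0655 with Integrator taken from the flow cell shared by INTS9, NABP1 and NABP2 (0.544 in NELF and 0.519 in Integrator). That flow cell held no sites of INIP, INTS3 or INTS11. With that flow cell the zone differences also turned, to -0.0656 in the first 5 kb, 0.0057 from 50 to 250 kb, 0.11 beyond 250 kb and 0.10 in the last 50 kb, and with genes of at least 1 Mb that of the first 5 kb to -0.14. The cause was not tested. Adjusted p lay between 0.343 and 0.802 over the 20 alternatives of the density and was at least 0.238 in the zones. Leaving out 1 library gave -0.19 to -0.04 for the density, 0.09 to 0.24 for the first 5 kb, -0.32 to -0.15 for 5 to 50 kb, -0.26 to -0.09 for 50 to 250 kb, -0.16 to -0.01 beyond 250 kb and -0.24 to -0.03 for the last 50 kb. It gave 0.335 to 0.367 for very long against shorter genes, 1.72 to 1.82 for mesenchymal against neuronal genes, 2.17 to 2.36 for internal starts against the rest, and 0 very long genes in limma. Without bases within 5 kb of annotated gene starts, the ratio of very long to shorter genes moved from 0.354 to 0.487. It was 0.312 for genes of at least 1 Mb and 0.314 with Integrator taken from that shared flow cell. The internal-start ratio, chosen after seeing the data, was 3.28 with 2 kb. Over all protein-coding genes limma called 6, but 81 of 10596 with a mean of at least 1 site, 1 of 87 with at least 20, 3 per 100000 genic sites, 2 without the first 5 kb, and 1 to 3 without 1 library. Very long genes had 0 calls in all 19 alternatives, with a lowest adjusted p of 0.0502 with a mean of at least 1 site. Of the 28 named genes, Rasgrf2 moved past its spread over known bases, an alternative added after seeing the data. No paired analysis was possible because replicate numbers follow accession order and each library is another protein. Small libraries limit single genes: 69 of 198 were below the limma filter.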

Other observations

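Sites in very long genes carried the base pattern known for HIV target DNA, but on the minus strand 1 base later. At plus-strand sites G made up 37.7% of bases at position 1, counted from the deposited base in the direction of its strand, T 44.7% at position 2, A 40.5% at position 4 and C 36.5% at position 5. At minus-strand sites G made up 38.4% at position 2, T 45.3% at position 3, A 42.2% at position 5 and C 36.4% at position 6. The capitals in the printed stretches follow the positions as deposited, and a shift of 1 base does not change counts over windows.

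Few positions in very long genes recurred between libraries. Of 28778 different positions, 57 were found in at least 2 libraries, 11 in at least 3 and 2 in 6. One of these lies in Mecom at chr3:30004441 and was shared by NELFA, NELFCD, INTS9, INTS11, NABP1 and NABP2, and the other in St6galnac3 at chr3:153064148. Positions shared with another library made up 0.165% of a library's sites in very long genes in INTS3 and 1.42% in NELFA.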
